A study of Homo sapiens with 9 samples.

Results

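Translation initiation factors are the 52 protein-coding genes of the deposited tables whose symbol begins with EIF, with the eIF2 kinases (symbols beginning EIF2AK) left out, among 78894 genes in all. They comprise 4 eIF2 genes, 5 eIF2B genes, 14 eIF3 genes, 16 eIF4 genes and 13 other factors. Of these, 50 passed the filter on low counts, among 16908 genes tested. EIF1AY and EIF4E1B did not pass; EIF4E1B, a germline relative of the cap-binding protein, reached at most 0.101 CPM. CPM, the unit of level used throughout, scales a gene's count to 1e+06 counts of its library and takes no account of gene length.

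The study compared poly-A RNA of Hap1 cells, a near-haploid human line of chronic myeloid leukaemia origin, that carried different forms of SARS2, the mitochondrial seryl-tRNA synthetase. In every group the endogenous SARS2 gene was deleted, a doxycycline-inducible FLAG-tagged SARS2 copy was present, and a further SARS2 copy, labelled SARS2+int14-myc, was expressed constitutively. That last copy was H448L in the first group, R227Q in the second and wild type (WT) in the third, with 3 libraries each, and all cells had grown for 6 days without doxycycline. The controls thus also lack endogenous SARS2, and the labels do not say whether a group is 1 clone or whether its libraries came from separate cultures, so p-values measure only the spread between these libraries.

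Initiation begins when eIF2, bound to GTP, brings the initiator tRNA to the small ribosomal subunit, and eIF2B recharges eIF2 with GTP after each round. eIF3 is the large scaffold on the small subunit, and the eIF4 group recognises the mRNA cap and unwinds the leader. Stress kinases phosphorylate the alpha subunit of eIF2, which blocks eIF2B and favours translation of ATF4, and the kinase complex mTORC1 acts on cap binding through the 4E-binding proteins.

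Libraries held 9900892 to 12991050 estimated counts, and the initiation factors made up 1.01 to 1.03% of them in H448L, 0.991 to 1.02% in R227Q and 1.07 to 1.09% in WT. The column names carry 2 codes, here called submissions, since the labels do not say what the codes stand for: SDKYMR holds R227Q 1, WT 1 and WT 2, and 4LJFHN holds all H448L libraries, R227Q 2, R227Q 3 and WT 3. Across genes, log2 CPM correlated at 0.989 to 0.994 between libraries of 1 submission and at 0.966 to 0.973 between submissions, so submission was a term in every fit. H448L cells are therefore set against 1 WT library of their own submission. The level of SARS2 itself was 7.88, 8.68 and 7.93 CPM in H448L, 8.68, 8.35 and 7.09 CPM in R227Q and 7.70, 8.54 and 6.20 CPM in WT, and did not pass the test in either variant (log2 fold change 0.28 ± 0.15, adjusted p = 0.29 in H448L; 0.18 ± 0.12, adjusted p = 0.38 in R227Q). Total SARS2 counts do not separate the copies. BCR and ABL1, fused in the leukaemia of origin, were at 10.3 to 13.3 and 2.36 to 4.70 CPM, while PTPRC, CD34, SPI1 and GATA1 of blood cells stayed at or below 0.799 CPM. Of the lists of other cell types, 2 of 5 neuronal genes passed the filter, with a summed level of 98.2 to 112 CPM in H448L, 113 to 119 CPM in R227Q and 124 to 136 CPM in WT, nearly all of it TUBB3. The epithelial list (3 of 6 tested, KRT18 leading) summed to 79.4 to 89.9 CPM in H448L, 84.8 to 92.5 CPM in R227Q and 78.1 to 81.7 CPM in WT. The fibroblast list (4 of 6 tested) summed to 61.2 to 71.2 CPM in H448L, 32.8 to 71.5 CPM in R227Q and 29.7 to 61.8 CPM in WT, and the blood cell list (1 of 8 tested, HBG1) to 15.5 to 21.3 CPM in H448L, 2.04 to 16.6 CPM in R227Q and 1.86 to 17.3 CPM in WT. All H448L libraries belong to 4LJFHN, while the R227Q and WT ranges span both submissions, so these ranges do not compare the groups alone. The part of these cell types in the results below was not tested. In bulk RNA, fewer cells of a type and less RNA per cell cannot be told apart.

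The transcript start of some initiation factors carries a terminal pyrimidine run, the 5′ TOP signature through which mTORC1 controls translation of ribosomal protein mRNAs. The sequences below show it for EIF3F, a member higher in R227Q, for EIF2S3 and EIF2A, which were lower in both variants, and for EIF4B, which passed in neither. EIF1AX and EIF5, both lower in R227Q, start without it. Each is an annotated RefSeq start in GRCh38.p14 (for EIF5, 1 of 2), with 40 bases before the start and 20 from it, written 5′ to 3′ on the gene's strand; capitals mark the pyrimidine run that begins at the start base, or the start base alone where there is none.
EIF3F, chr11:7987297-7987356, plus strand: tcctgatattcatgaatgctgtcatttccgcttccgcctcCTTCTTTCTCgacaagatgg
EIF2S3, chrX:24054916-24054975, plus strand: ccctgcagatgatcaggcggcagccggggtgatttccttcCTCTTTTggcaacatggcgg
EIF2A, chr3:150546747-150546806, plus strand: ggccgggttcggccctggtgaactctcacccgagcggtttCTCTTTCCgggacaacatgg
EIF4B, chr12:53006416-53006475, plus strand: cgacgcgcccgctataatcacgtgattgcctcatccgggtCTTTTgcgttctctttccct
EIF1AX, chrX:20141819-20141878, minus strand: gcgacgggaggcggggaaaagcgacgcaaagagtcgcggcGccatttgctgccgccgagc
EIF5, chr14:103334197-103334256, plus strand: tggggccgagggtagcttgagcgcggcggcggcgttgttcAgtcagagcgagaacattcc

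Across the initiation factors, most called differences were decreases of modest size. In H448L against WT, 9 of 50 were called, all lower, which is 18% against 7.97% of all genes tested (2.97% higher and 4.99% lower). In R227Q against WT, 25 of 50 were called, 22 lower and 3 higher, which is 50% against 17.4% of all genes (7.5% higher and 9.91% lower). A call here means an adjusted p under 0.05 in edgeR's quasi-likelihood test with Benjamini-Hochberg adjustment over all genes, and both comparisons use the same WT libraries. The median log2 fold change of the members was -0.06 in H448L and -0.11 in R227Q, beside 0.01 and 0.00 for all genes.

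Initiation factors were abundant, with a median level of 147 CPM against 14.6 CPM for all tested genes. Among the 3654 genes at a mean of at least 50 CPM, 18.5% were called in H448L and 8 of 40 members (20%), so the H448L share is close to the background there. In R227Q the same cut gave 33.0% of genes and 21 of 40 members (52.5%), 20 of them lower, with medians of -0.11 for members and -0.04 for all genes. The summed level of all members was 10165, 10129 and 10320 CPM in H448L, 10168, 9922 and 9913 CPM in R227Q, and 10733, 10867 and 10753 CPM in WT. Every variant library lay below every WT library in that sum.

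**Figure D1:**
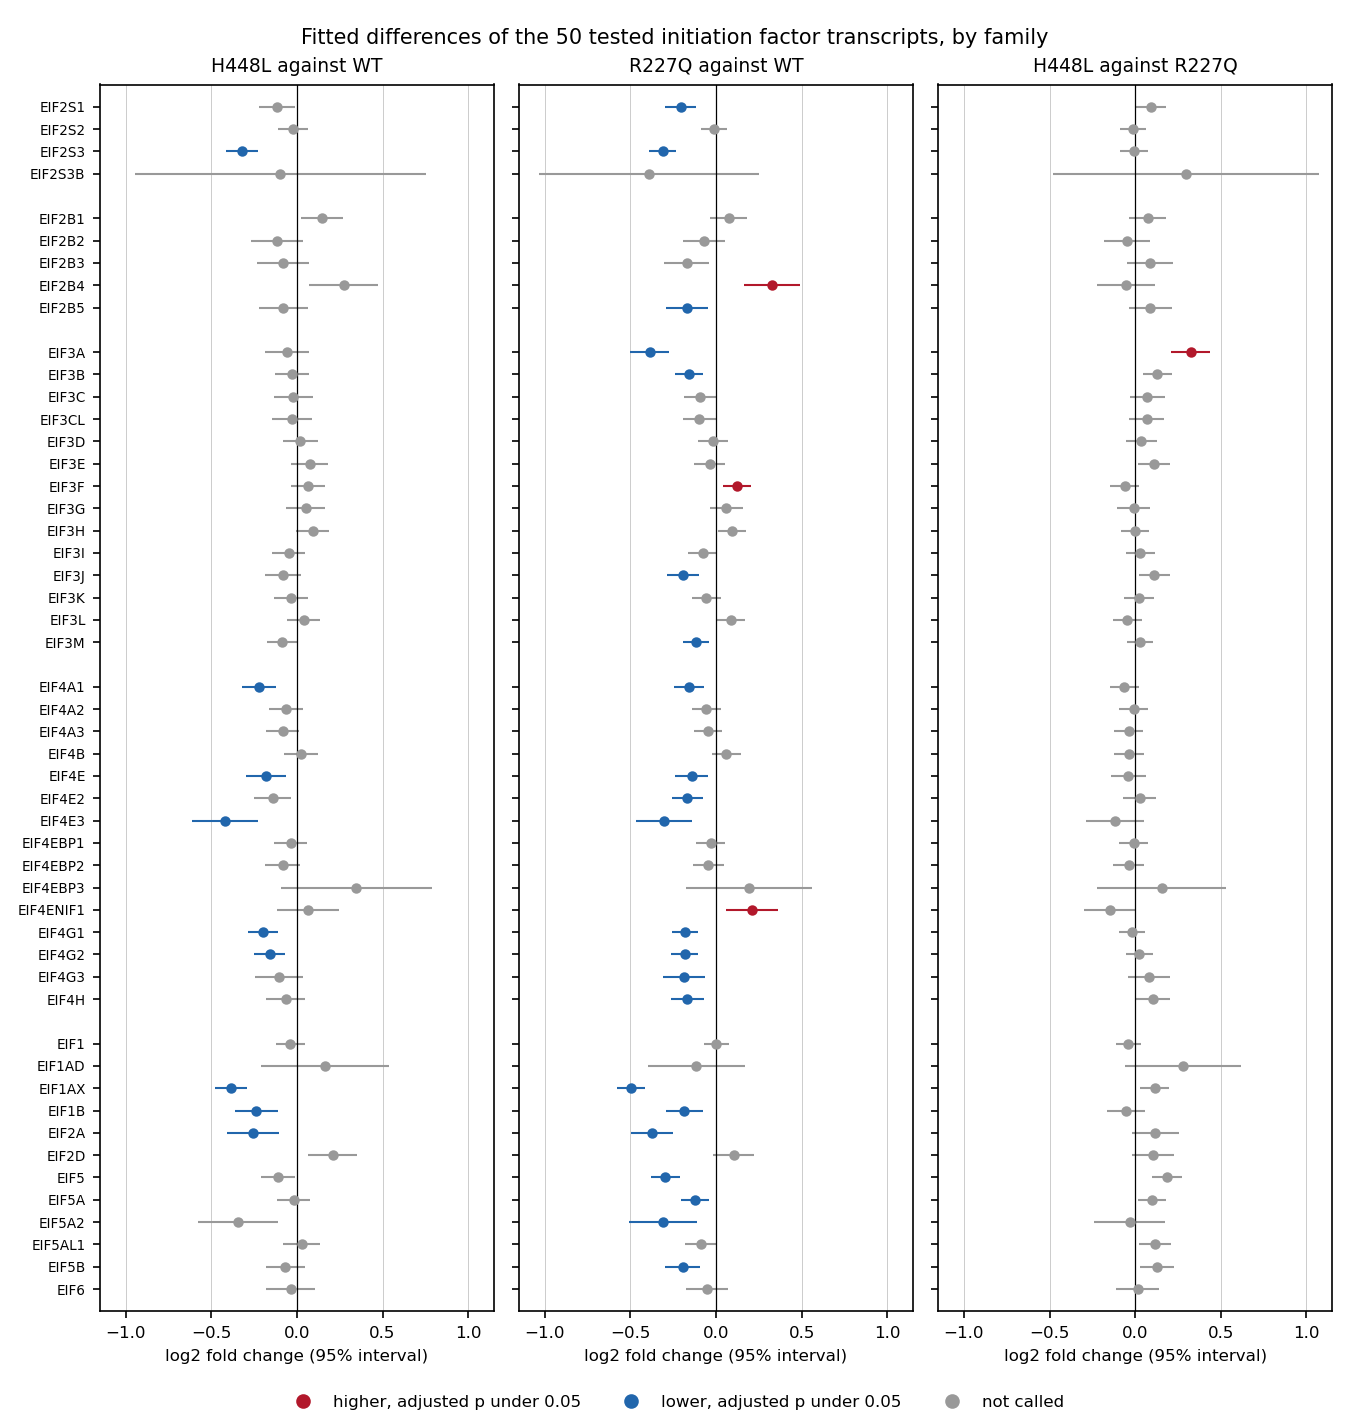
Log2 fold change (points, horizontal axis) and 95% interval (lines) of each of the 50 tested initiation factors by family, in H448L against WT, R227Q against WT and H448L against R227Q, with red for higher, blue for lower and grey for not called. Most coloured points lie below 0, with 9 lower in H448L and with 22 lower and 3 higher in R227Q, and EIF3A alone is coloured in the direct comparison.

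Calls, of members and of all genes alike, depended on single libraries, above all on WT 3, the one WT library of submission 4LJFHN. Without WT 3, 2 members were called in H448L and 7 in R227Q, against 9 and 25 with it, and the share of all genes called was likewise smaller, at 1.46% in H448L and 6.31% in R227Q. Without the submission term 1 member, EIF1AX, was called in each variant, with 0.869% of all genes in H448L and 1.85% in R227Q. With 4LJFHN libraries alone 8 members were called in R227Q, beside 6.51% of all genes. R227Q can be set against WT inside each submission: the sign agreed in SDKYMR and 4LJFHN for 25 of 25 called members, although the fit had used both. The difference between the 2 submission-specific effects was called by edgeR for 0 of 50 members (0 at an unadjusted p under 0.05) and for 0 of all 16908 genes (736 at an unadjusted p under 0.05), with 4 residual degrees of freedom, so the absence of calls does not show that the effects were equal. The widest such difference among called members was 0.18 on the log2 scale. Submission itself separated 33 of 50 members, 66% against 43.8% of all genes.

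The tool and the scaling also decided some of the smaller changes. In H448L, DESeq2 did not call EIF2A or EIF4E, upper-quartile scaling did not call EIF4E or EIF4G2, 4LJFHN alone did not call EIF1B or EIF4E, and the replicate block did not call EIF1B, EIF2A, EIF4E or EIF4G2. In R227Q, DESeq2 did not call EIF1B, EIF2B4, EIF2B5, EIF3F, EIF4E, EIF4E3, EIF4ENIF1, EIF4G3 or EIF5A2, and upper-quartile scaling did not call EIF2B5, EIF3M, EIF4E, EIF4G3 or EIF5A. With no filter on low counts EIF2B5, EIF3F, EIF3M, EIF4E and EIF4ENIF1 were not called in R227Q, and EIF2B5, EIF4ENIF1 and EIF5A were not called with the replicate block. With 4LJFHN alone, R227Q kept EIF1AX, EIF2A, EIF2S3, EIF3A, EIF4E3, EIF4G2, EIF5 and EIF5B. Over all 19 alternatives EIF4E was called in 7 in H448L and 8 in R227Q, EIF2A in 12 in H448L and 18 in R227Q, EIF4ENIF1 in 6 in R227Q and EIF2B5 in 4 in R227Q.

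**Figure D2:**
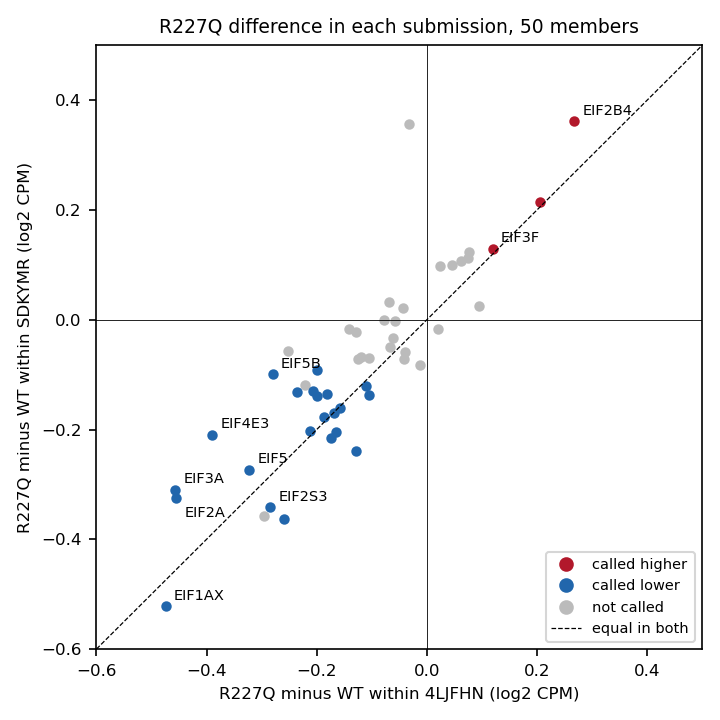
Difference in log2 CPM of R227Q minus WT for each tested initiation factor, within submission SDKYMR on the vertical axis (1 R227Q and 2 WT libraries) and within 4LJFHN on the horizontal axis (2 R227Q libraries and 1 WT library). All 25 called members, drawn in red or blue, have the same sign on both axes, although the fit behind the calls had used both submissions. EIF1AX lies lowest at -0.52 in SDKYMR and -0.47 in 4LJFHN.

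The eIF2 complex that carries the initiator tRNA was lower in its gamma subunit in both variants and in its alpha subunit in R227Q. EIF2S3, the gamma subunit, which binds GTP and the tRNA, lies at chrX:24054716-24077971 (plus strand). It measured 489, 474 and 456 CPM in H448L, 422, 466 and 484 CPM in R227Q and 538, 524 and 574 CPM in WT. No library of either variant reached the lowest WT library. The log2 fold change was -0.32 ± 0.05 in H448L (adjusted p = 2.3e-05) and -0.31 ± 0.04 in R227Q (adjusted p = 1.2e-06), or 0.80-fold and 0.81-fold, and neither call was lost when any single library was left out. EIF2S3B, a copy that shares 36.5% of its 31-base words with EIF2S3, passed in neither comparison. It was near the floor at 0.767 ± 0.065 CPM in H448L, 0.834 ± 0.315 CPM in R227Q and 1.29 ± 0.47 CPM in WT.

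EIF2S1 encodes the alpha subunit that stress kinases phosphorylate and lies at chr14:67359997-67386516 (plus strand). It measured 129, 133 and 133 CPM in H448L, 102, 120.0 and 125 CPM in R227Q and 119, 114 and 141 CPM in WT. The groups overlap across submissions, while R227Q was below WT inside each of them, by -0.20 in SDKYMR and -0.21 in 4LJFHN. In R227Q it fell by 0.21 on the log2 scale (SE 0.04, adjusted p = 0.0012), a call lost without WT 3 (-0.20). In H448L the value was -0.12 ± 0.05 (adjusted p = 0.17), and the 2 variants were not shown to differ (0.09, 95% interval 0.00 to 0.18, adjusted p = 0.45). EIF2S2, the beta subunit, stayed at -0.02 in H448L and -0.01 in R227Q with intervals of -0.11 to 0.07 and -0.09 to 0.07.

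The exchange factor eIF2B showed no common direction. In H448L edgeR called 0 of its 5 subunits (2 at an unadjusted p under 0.05, DESeq2 0, limma-voom 0), and in R227Q it called 1 higher and 1 lower. Of all genes tested, 7.97% were called in H448L and 17.4% in R227Q. A list of 5 genes is too short to set its counts apart from such shares. EIF2B4, the delta subunit of the regulatory part, at chr2:27364352-27370486 (minus strand), had 18.2, 19.2 and 21.1 CPM in H448L, 27.6, 19.4 and 20.04 CPM in R227Q and 20.8, 21.8 and 16.3 CPM in WT. The R227Q library was the highest of SDKYMR and both R227Q libraries of 4LJFHN exceeded their WT library. EIF2B4 rose in R227Q by 0.33 ± 0.08 (adjusted p = 0.0041) and lost the call without R227Q 1 (0.27). Its H448L value was 0.27 ± 0.10 (adjusted p = 0.086).

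EIF2B5, the catalytic epsilon subunit, lies at chr3:184135038-184146112 (plus strand). It had 53.4, 47.8 and 53.6 CPM in H448L, 45.8, 47.1 and 48.4 CPM in R227Q and 49.0, 51.1 and 54.5 CPM in WT. R227Q libraries lay below every WT library. Its change was at the edge of the test in R227Q (-0.17 ± 0.06, adjusted p = 0.048), and leaving out any 1 of the WT libraries, the R227Q libraries or H448L 1 ended the call, with values between -0.20 and -0.14. In H448L it was -0.08 ± 0.07 (adjusted p = 0.56). EIF2B1, EIF2B2 and EIF2B3 passed in neither comparison, with values of 0.15, -0.12 and -0.08 in H448L and 0.07, -0.07 and -0.17 in R227Q.

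**Figure D3:**
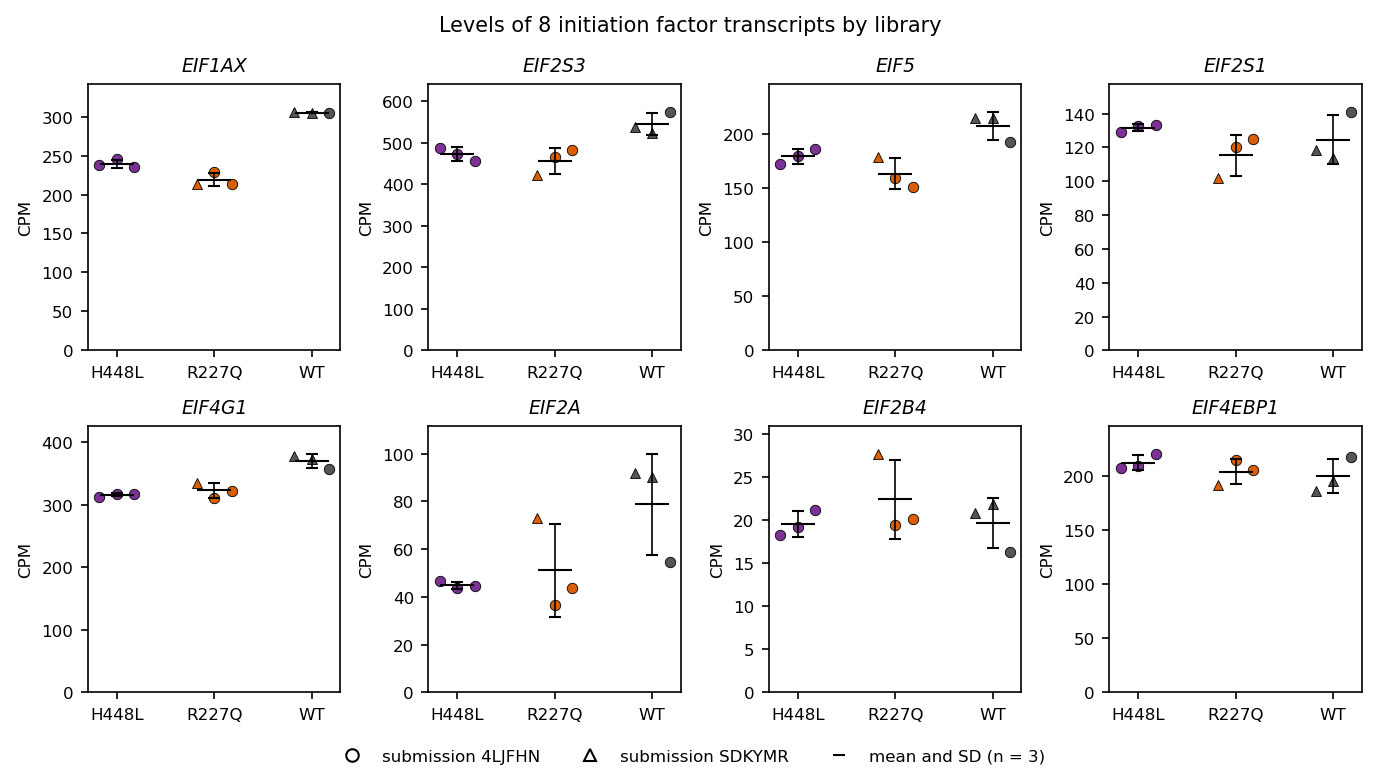
CPM of 8 initiation factors by library, with circles for submission 4LJFHN, triangles for SDKYMR, and the mean and SD of 3 libraries per group; each vertical axis starts at 0. EIF1AX, EIF2S3, EIF5 and EIF4G1 show H448L and R227Q libraries below every WT library, and in EIF2A and EIF2B4 the SDKYMR libraries lie above most 4LJFHN libraries.

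The one called difference between the variants lay in eIF3. EIF3A, the large scaffold subunit, at chr10:119033670-119080823 (minus strand), had 217, 212 and 254 CPM in H448L, 152, 185 and 169 CPM in R227Q and 194, 179.9 and 241 CPM in WT. Every H448L library was above every R227Q library, and inside each submission R227Q was below WT (-0.31 in SDKYMR and -0.46 in 4LJFHN). The change was -0.39 ± 0.06 in R227Q (adjusted p = 9.0e-06) and -0.06 ± 0.06 in H448L (adjusted p = 0.64). H448L against R227Q gave 0.33 ± 0.06 (adjusted p = 0.0047). That was the single initiation factor called in the direct comparison, 2% of members against 0.207% of all genes (0.0828% higher and 0.124% lower in H448L). The call was lost without R227Q 3 (0.27, adjusted p = 0.26) and with no submission term (0.41). EIF3A overlaps the small RNA gene SNORA19 on its own strand and NANOS1 on the other, and the labels do not say whether counting used strand.

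Of the other 13 eIF3 genes, edgeR called none in H448L (0 at an unadjusted p under 0.05 in all 14, DESeq2 0, limma-voom 0). There, eIF3 values ran from -0.09 to 0.09, and 7.97% of all genes tested were called. In R227Q, 5 of 14 eIF3 genes were called (35.7%), against 17.4% of all genes tested. Among genes of at least 50 CPM the shares called were 18.5% in H448L and 33.0% in R227Q. In R227Q, EIF3B, the RNA-binding scaffold partner of EIF3A, was at -0.16 ± 0.04 (adjusted p = 0.0070), and EIF3J, a loosely bound subunit at the decoding site, at -0.19 ± 0.04 (adjusted p = 0.0028). EIF3B lost the call without WT 3 (-0.14) or R227Q 1 (-0.18), and EIF3J without WT 3 (-0.22) or R227Q 1 (-0.17). EIF3M was at -0.12 ± 0.04 (adjusted p = 0.029), lost without WT 1, WT 3, R227Q 1 or R227Q 2 (-0.12 to -0.10).

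EIF3F, a subunit of the MPN pair, was the one eIF3 gene called higher. It measured 223, 213 and 218 CPM in H448L, 441, 228 and 222 CPM in R227Q, and 387, 414 and 206 CPM in WT. SDKYMR libraries were far above 4LJFHN libraries (submission term 1.02 on the log2 scale), and R227Q stood above WT inside each submission but not across them. The fit gave 0.12 ± 0.04 (adjusted p = 0.029), while without the submission term the value turned to -0.20. Leaving out WT 1, WT 3, R227Q 1 or R227Q 2 ended the call (0.10 to 0.13). EIF3CL shares 98.5% of its 31-base words with EIF3C, so their separate counts are uncertain. EIF3C and EIF3CL were at -0.02 and -0.03 in H448L and -0.09 and -0.10 in R227Q.

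**Figure D4:**
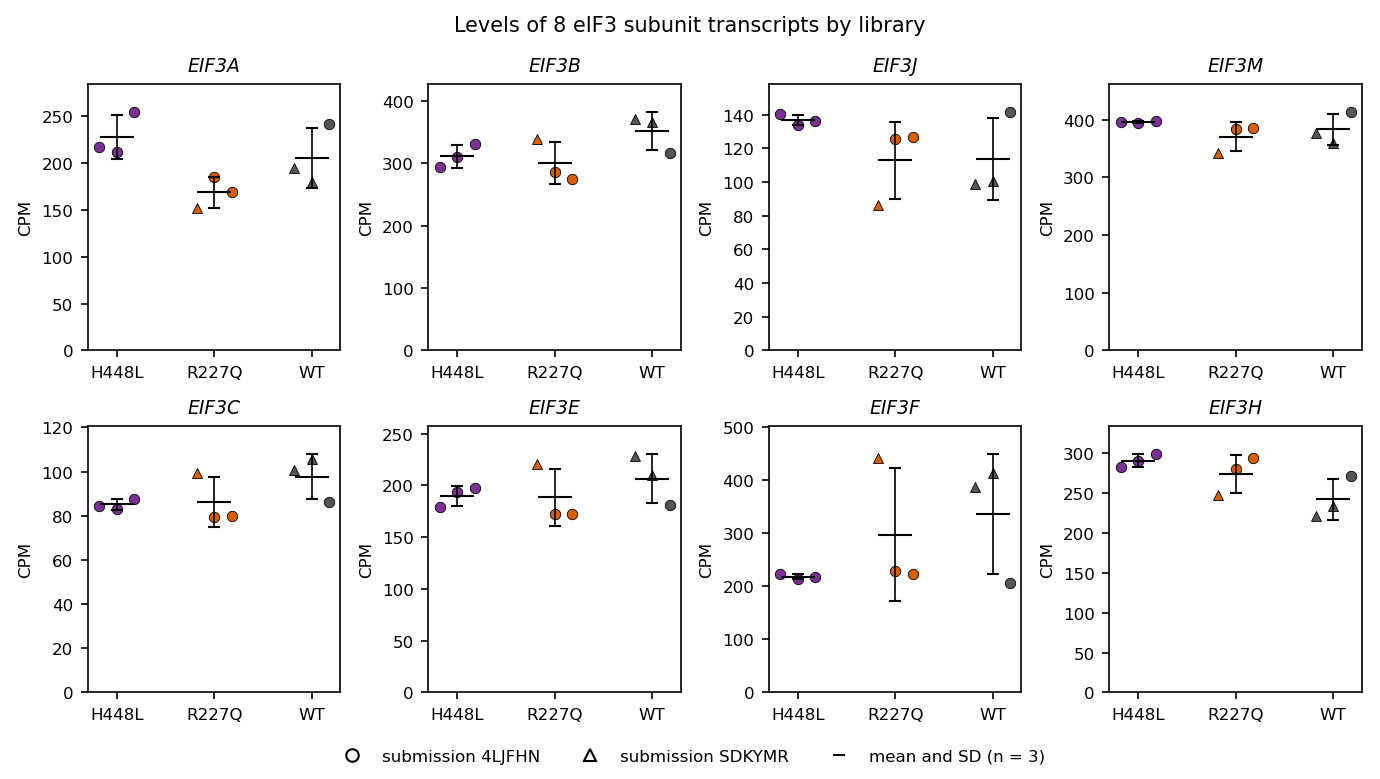
CPM of 8 eIF3 subunits by library, with circles for submission 4LJFHN, triangles for SDKYMR and the mean and SD of 3 libraries per group. EIF3A has all 3 H448L libraries above all 3 R227Q libraries, and EIF3F has SDKYMR libraries at 387 to 441 CPM against 206 to 228 CPM for 4LJFHN.

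The eIF4 group, which binds the cap and unwinds the leader, had 5 of 15 tested genes lower in H448L, and 8 lower and 1 higher in R227Q, with medians of -0.08 and -0.14. Within eIF4F proper (EIF4E, EIF4A1, EIF4A2, EIF4G1 and EIF4G3), 3 of 5 were lower in H448L and 4 of 5 in R227Q. Of all genes tested, 4.99% were called lower in H448L and 9.91% in R227Q. Among genes of at least 50 CPM these shares were 15.1% and 24.5%. EIF4A1, the cap complex's RNA helicase, at chr17:7572706-7579005 (plus strand), had 1169, 1130.4 and 1025 CPM in H448L, 1089, 1168 and 1129 CPM in R227Q and 1184, 1232 and 1272 CPM in WT. Neither variant overlapped WT. It changed by -0.22 ± 0.05 in H448L (adjusted p = 0.0038) and -0.16 ± 0.04 in R227Q (adjusted p = 0.0083). The H448L call was lost without WT 3 (-0.22, adjusted p = 0.17) and the R227Q call without WT 3 or R227Q 1 (-0.16 in both). EIF4A1 shares its strand with 3 small nucleolar RNA genes and the SENP3-EIF4A1 readthrough.

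EIF4E, the cap-binding protein, at chr4:98871684-98930637 (minus strand), had 86.1, 83.4 and 80.8 CPM in H448L, 98.6, 83.1 and 84.8 CPM in R227Q and 103, 106 and 95.8 CPM in WT. R227Q 1 exceeded WT 3 but not the WT libraries of its own submission. The changes were small, -0.18 ± 0.06 in H448L (adjusted p = 0.046) and -0.14 ± 0.05 in R227Q (adjusted p = 0.038). Besides the settings named above, the H448L call ended without any 1 of the WT libraries, R227Q 1, R227Q 3, H448L 2 or H448L 3 (-0.22 to -0.11), and the R227Q call without WT 2, WT 3, any R227Q library or H448L 2 (-0.20 to -0.09). Without WT 3 the values were -0.11 in H448L and -0.09 in R227Q.

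EIF4E3, a cap-binding relative of low abundance, at chr3:71675416-71754773 (minus strand), had 23.1, 20.6 and 22.6 CPM in H448L, 19.7, 21.7 and 24.8 CPM in R227Q and 22.9, 22.4 and 30.2 CPM in WT. WT 3 stood well above every other library. EIF4E3 was at -0.42 ± 0.09 in H448L (adjusted p = 0.0040) and -0.31 ± 0.08 in R227Q (adjusted p = 0.0075), and both calls rested on WT 3, since without it the values were -0.30 (adjusted p = 0.38) and -0.21 (adjusted p = 0.33). EIF4E2, which competes with EIF4E at the cap, was called in R227Q (-0.17 ± 0.04, adjusted p = 0.0096) but lost the call without WT 3 (-0.13) or R227Q 1 (-0.21), and was at -0.14 ± 0.05 in H448L (adjusted p = 0.10).

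EIF4G1, the main scaffold that joins cap, helicase and eIF3, was lower at -0.20 ± 0.04 in H448L (adjusted p = 0.0035) and -0.18 ± 0.04 in R227Q (adjusted p = 8.4e-04). Its libraries had 313 to 318 CPM in H448L, 311 to 336 CPM in R227Q and 358 to 379 CPM in WT, with no overlap of either variant with WT, yet both calls missed the threshold without WT 3 (-0.19 and -0.18). EIF4G2, a scaffold that lacks the cap-binding part, at chr11:10797050-10809110 (minus strand), had 559, 563 and 601 CPM in H448L, 477, 549 and 558 CPM in R227Q and 515, 523 and 647 CPM in WT. Here the groups overlap, and WT 3 was the highest library of all. EIF4G2 was at -0.16 ± 0.04 in H448L (adjusted p = 0.021) and -0.18 ± 0.04 in R227Q (adjusted p = 9.5e-04). Without WT 3 these were -0.09 (adjusted p = 0.63) and -0.13 (adjusted p = 0.17), and the H448L call also ended without H448L 2 (-0.14).

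EIF4G3, another scaffold, and EIF4H, a helper of the helicase, were lower in R227Q at -0.19 ± 0.06 (adjusted p = 0.029) and -0.17 ± 0.05 (adjusted p = 0.014). EIF4G3 lost its call without WT 2, WT 3, R227Q 1 or R227Q 3 (-0.21 to -0.15) and EIF4H without WT 3, R227Q 1 or R227Q 2 (-0.17 to -0.13). EIF4ENIF1, also called 4E-T, which takes EIF4E to the nucleus and to P-bodies, at chr22:31436977-31496108 (minus strand), was the one eIF4 gene called higher. It had 28.6, 24.6 and 29.1 CPM in H448L, 30.0, 29.8 and 30.3 CPM in R227Q and 24.7, 26.6 and 25.9 CPM in WT. R227Q libraries lay above all WT libraries and all H448L libraries, and H448L overlapped WT. The R227Q change of 0.21 ± 0.07 barely passed (adjusted p = 0.047), and leaving out any WT or R227Q library ended the call (0.19 to 0.23). The H448L value was 0.07 ± 0.09 (adjusted p = 0.74).

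The 4E-binding proteins, which block EIF4E when mTORC1 is inactive, showed no called change. edgeR called 0 of 3 in H448L and 0 of 3 in R227Q, with 0 at an unadjusted p under 0.05 in each and 0 by DESeq2 and limma-voom. Of all genes tested, 7.97% were called in H448L and 17.4% in R227Q, and 3 genes are too few to set 0 calls apart from those shares. EIF4EBP1 had 207, 209.5 and 220.2 CPM in H448L, 192, 214 and 206 CPM in R227Q and 186, 195 and 217 CPM in WT. All 3 groups overlap. Its log2 fold change was -0.04 in H448L (95% interval -0.13 to 0.06, adjusted p = 0.72) and -0.03 in R227Q (-0.11 to 0.05, adjusted p = 0.68).

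Among the remaining factors, EIF1AX changed most of all members in R227Q. It encodes eIF1A, which keeps the scanning ribosome open until a start codon is found, and lies at chrX:20124518-20141844 (minus strand). It measured 238, 245 and 235 CPM in H448L, 214, 228 and 214 CPM in R227Q and 306, 304 and 305 CPM in WT. The WT libraries agreed closely across both submissions and every variant library was far below them. The change was -0.38 ± 0.05 in H448L (0.77-fold, adjusted p = 2.0e-06) and -0.50 ± 0.04 in R227Q (0.71-fold, adjusted p = 4.6e-10), called in both variants under all 19 alternatives run. The variants differed from each other by 0.11 ± 0.04, which did not pass the test (95% interval 0.03 to 0.20, adjusted p = 0.25). EIF1AX holds small RNA genes on its strand and overlaps EIF1AX-AS1 on the other.

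EIF1, the start-codon fidelity factor that works beside eIF1A, was at -0.04 in H448L and 0.00 in R227Q and passed in neither. Its near copy EIF1B, at chr3:40309684-40312424 (plus strand), had 63.0, 61.6 and 62.1 CPM in H448L, 64.2, 62.6 and 66.8 CPM in R227Q and 75.7, 75.1 and 70.4 CPM in WT. Both variants lay below all WT libraries. EIF1B was at -0.24 ± 0.06 in H448L (adjusted p = 0.014) and -0.19 ± 0.05 in R227Q (adjusted p = 0.012). The H448L call ended without WT 3 (-0.31), R227Q 1 (-0.20) or H448L 2 (-0.22), and the R227Q call without R227Q 1 (-0.13). EIF1 and EIF1B shared 0 of their 31-base words.

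EIF5 encodes the protein that makes eIF2 hydrolyse its GTP when the start codon is found, and lies at chr14:103333544-103345025 (plus strand). It had 173, 179.7 and 187 CPM in H448L, 179, 159 and 151 CPM in R227Q and 215, 215 and 193 CPM in WT. All variant libraries were below all WT libraries. EIF5 fell in R227Q by 0.30 on the log2 scale (SE 0.04, adjusted p = 5.8e-06) with no single library deciding the call, while H448L was at -0.11 ± 0.05 (adjusted p = 0.18). The direct difference of 0.19 ± 0.04 narrowly missed the threshold (adjusted p = 0.055), and it passed in DESeq2 (0.19) and without H448L 1 (0.21).

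EIF5B, the GTPase that joins the large subunit, was lower in R227Q (-0.20 ± 0.05, adjusted p = 0.0053) and not called in H448L (-0.07 ± 0.06, adjusted p = 0.53). Its levels were 237, 237 and 268 CPM in H448L, 149.96, 226 and 213 CPM in R227Q and 163, 156 and 265 CPM in WT. WT 3 was higher than the other WT libraries, as 4LJFHN libraries were in general for this gene (submission term -0.60), and without WT 3 the R227Q value was -0.10 (adjusted p = 0.48). EIF2A, an alternative carrier of initiator tRNA distinct from eIF2, at chr3:150546678-150584242 (plus strand), had 46.6, 43.6 and 44.4 CPM in H448L, 73.2, 36.6 and 43.7 CPM in R227Q and 91.8, 90.2 and 54.5 CPM in WT. Inside each submission every variant library was below WT. EIF2A was at -0.26 ± 0.07 in H448L (adjusted p = 0.029) and -0.37 ± 0.06 in R227Q (adjusted p = 3.4e-05). The R227Q call outlasted the removal of any 1 library, whereas the H448L call ended with DESeq2 (-0.27), with the replicate block (-0.24), and without WT 3 (-0.18), R227Q 3 (-0.22), H448L 2 (-0.23) or H448L 3 (-0.25). EIF2A overlaps SERP1 on the opposite strand.

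EIF5A, which relieves ribosome stalling and carries hypusine, was at -0.12 ± 0.04 in R227Q (adjusted p = 0.035) and -0.02 in H448L, and the call ended without any 1 of the WT libraries, R227Q 1 or R227Q 3 (-0.14 to -0.10). Its relative EIF5A2, at chr3:170888415-170908693 (minus strand), had 15.9, 12.6 and 14.1 CPM in H448L, 12.4, 15.4 and 13.8 CPM in R227Q and 15.8, 15.8 and 17.4 CPM in WT. R227Q lay below WT throughout and H448L 1 overlapped WT. EIF5A2 was at -0.31 ± 0.10 in R227Q (adjusted p = 0.025), lost without WT 1, WT 3, R227Q 1 or R227Q 3 (-0.37 to -0.26), and at -0.34 ± 0.11 in H448L (adjusted p = 0.061). EIF5AL1 shares 16.5% of its 31-base words with EIF5A and was not called. EIF6, which holds large subunits apart, EIF2D, a relative of reinitiation factors, and EIF1AD passed in neither variant, EIF2D being closest in H448L (0.21 ± 0.07, adjusted p = 0.068).

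Few differences between the variants passed the direct test. H448L minus R227Q had a median of 0.03 over the 50 members, beside 0.01 for all genes. In edgeR, 11 members were at an unadjusted p under 0.05, all of them higher in H448L. The share and direction of all genes at that p are not given here, so this count has no background to be read against. EIF3A was the single one called by edgeR and limma-voom, and DESeq2 called 2. Of all genes these tools called 0.207%, 0.225% and 0.319%, in that order. Family medians were 0.04 for eIF2, 0.07 for eIF2B, 0.03 for eIF3 and -0.02 for eIF4. Single libraries moved them: eIF2 was 0.02 without R227Q 2 and 0.07 without R227Q 3, eIF2B was 0.02 without R227Q 3 and 0.03 without H448L 2, eIF3 was 0.01 without R227Q 2 and 0.05 without WT 3, R227Q 1 or R227Q 3, and eIF4 was -0.05 without R227Q 2, -0.03 without H448L 2 and -0.01 without R227Q 3 or H448L 3.

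Around the initiation factors, 21 partners outside the EIF names were examined. Of these, 3 were lower in H448L (14.3%), 6 were lower in R227Q (28.6%) and 0 were higher in either. All genes tested had 7.97% called in H448L and 17.4% in R227Q, and genes of at least 50 CPM had 18.5% and 33.0%. Some partners, such as NCBP1 and CTIF, lay below 50 CPM. BZW2, a competitor of EIF5 for eIF2, was at -0.31 ± 0.05 in H448L (adjusted p = 9.3e-05) and -0.32 ± 0.04 in R227Q (adjusted p = 2.8e-06). NCBP2, the nuclear cap-binding subunit, was at -0.26 ± 0.05 in H448L (adjusted p = 0.0019) and -0.28 ± 0.04 in R227Q (adjusted p = 3.8e-05). Of 6 eIF2 alpha kinase and phosphatase genes, edgeR called 0 in H448L and 0 in R227Q, with 0 and 2 at an unadjusted p under 0.05 and 0 by DESeq2 and limma-voom in either. DDIT3, the CHOP gene downstream of ATF4, was higher at 0.65 ± 0.08 in H448L (adjusted p = 4.2e-06) and 0.78 ± 0.07 in R227Q (adjusted p = 8.4e-10). It had 30.4, 33.2 and 33.0 CPM in H448L, 54.7, 36.7 and 34.0 CPM in R227Q and 32.3, 31.9 and 19.7 CPM in WT. H448L thus overlapped WT across submissions and lay above WT 3, the one WT library of its own submission. ATF4 was at 0.13 ± 0.05 in H448L (adjusted p = 0.11) and 0.13 ± 0.04 in R227Q (adjusted p = 0.027).

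In the mTORC1 and S6 kinase list, 1 of 11 genes was higher and 1 lower in H448L (18.2%). R227Q had 1 higher and 3 lower (36.4%). Of all genes tested, 7.97% were called in H448L and 17.4% in R227Q. Among genes of at least 50 CPM the shares were 18.5% and 33.0%, but genes of this list such as TSC2, MTOR and RPTOR lay below 50 CPM. TSC2, which restrains mTORC1, was at 0.37 ± 0.09 in H448L (adjusted p = 0.0064) and 0.26 ± 0.07 in R227Q (adjusted p = 0.013). RHEB, which activates it, was at -0.27 ± 0.06 in H448L (adjusted p = 0.0067) and -0.16 ± 0.05 in R227Q (adjusted p = 0.035). Of 10 tested elongation and termination factors, 1 was higher and 1 lower in H448L (20% of the list). In R227Q, 2 were higher and 3 lower (50%), the same share as the initiation factors had there. These stand beside the same 7.97% and 17.4% of all genes tested, and 18.5% and 33.0% of genes of at least 50 CPM. GSPT1, the release factor eRF3a, was at -0.24 ± 0.05 in H448L (adjusted p = 8.3e-04) and -0.34 ± 0.04 in R227Q (adjusted p = 3.3e-07), and EEF1G at 0.16 ± 0.04 in both (adjusted p = 0.024 and 0.0044).

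The promoter sequences had features that the choice of members did not use. The set of RefSeq promoters used here holds 60 annotated starts for 44 of the 52 members, each taken as a window of 300 bases around the start. It has none for EIF2S2, EIF3A, EIF3CL, EIF3E, EIF3G, EIF3H, EIF3L and EIF4EBP1, so the shares below do not cover the whole family. A start base C followed by at least 4 pyrimidines, as capitalised above, occurred in 10 of 60 (16.7%) against 4.07% of all 35116 RefSeq promoters. Of the 10 genes with such a start, 2 were called lower in H448L, and 3 lower and 1 higher in R227Q. Of the 32 tested genes with a promoter and no such start, 7 were lower in H448L, and 18 lower and 2 higher in R227Q. Of all genes tested, 4.99% were called lower in H448L and 9.91% in R227Q, with 2.97% and 7.5% higher. A fixed list of 4 initiation factor mRNAs with a 5′ TOP start had 0 calls in H448L and 1, a higher one, in R227Q. Whether calls differ by type of start was not tested. The E-box CACGTG, a palindrome that reads alike on both strands and can be seen in the EIF4B line above in lower case, occurred in 11 of 60 (18.3%) against 7.26%. TGATGNAAT, the element bound by CHOP and ATF4 with CEBP partners, searched on both strands, was in 0 of 60 promoters against 0.991% of all. These matches are letters in a fixed window, and several starts of 1 gene share sequence.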

How the data were processed

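Poly-A RNA of 9 Hap1 libraries was measured by sequencing. Per the labels' protocols, RNA extraction from lysates and tagmented Illumina library construction were done by a commercial service. The deposited tables hold estimated counts per gene, as the authors made them, which need not be whole and were rounded before the fits. The deposited CPM values, which the authors scaled by each library's total, are the levels printed here and were not used for tests. The log2 CPM behind the correlations and the differences within submissions were computed from the counts. The build is GRCh38 per the submitters' processing notes; the sources used here do not give the aligner, counter, annotation release or use of strand. By GENCODE, 40 of the 52 members overlap another annotated gene, 33 of them on the opposite strand, so unstranded counts of such pairs could not be told apart.

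Left out were 92 spike-in entries. Genes passing edgeR's filterByExpr were scaled by TMM and fitted with group and submission (residual df 5, common biological coefficient of variation 2.96%), and tested with edgeR 4.0.16 (glmQLFit and glmQLFTest, R 4.3.3) with Benjamini-Hochberg adjustment at 0.05. The values after ± are SE for log2 fold changes and SD over 3 libraries for CPM. Submissions were split by the codes in the column names. Alternatives were DESeq2 1.42.0, limma-voom (limma 3.58.1), other scaling and filters, no submission term, 4LJFHN alone, a replicate block, each library left out, and, chosen after seeing the data, summed paralog copies and a test of the R227Q effect between submissions. The script was tested on simulated counts.

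The members and lists were chosen with earlier results of these data known. Named in full were members called against WT with an absolute log2 fold change of at least 0.2, plus EIF2S1, EIF2B5, EIF4E, EIF4EBP1 and EIF4G2; EIF3F, EIF4G1 and EIF5B were given by library after their values were seen. In each outside list the 2 genes of smallest p were named, with ATF4 and DDIT3. Promoters came from RefSeq (GRCh38.p14), gene positions and overlaps from GENCODE (GRCh38).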

Additional observations from a re-analysis of the deposited data

Results flagged for a closer look

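EIF3A stood out because the variants themselves differed in it: the log2 difference of H448L minus R227Q was 0.33 (adjusted p = 0.0047, edgeR), with 212 to 254 CPM in H448L and 152 to 185 CPM in R227Q, and 180 to 241 CPM in WT. Restricted to the libraries of submission 4LJFHN, where both variants have libraries, the difference was 0.35. Over the alternatives it ran from 0.24 to 0.41, and it missed the threshold without the submission term and without R227Q replicate 3.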

How the results depend on the processing

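In R227Q against WT, 25 initiation factors were called, against 16 with DESeq2, 1 with no submission term and 8 with 4LJFHN alone, and 7 (without WT 3) to 25 when 1 library was left out. In H448L against WT, 9 were called, against 1 with no submission term and 2 (without WT 3) to 11 (without H448L 1) with 1 library left out. Upper-quartile scaling gave 1 higher and 7 lower there, against 0 and 9. The share of all genes called in H448L was 7.97%, against 0.869% with no submission term and 1.46% without WT 3. It was 7.97% without H448L 1 and 7.31% with upper-quartile scaling. In R227Q the share was 17.4%, against 9.14% with DESeq2, 1.85% with no submission term and 6.31% without WT 3. In H448L against R227Q, 1 was called, against 2 with DESeq2, 0 with no submission term, and 0 (without R227Q 3) to 2 (without H448L 1). Of all genes, these fits called 0.207%, 0.319%, 0.00591%, 0.0232% and 0.527%, in that order.

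Family medians (log2) moved as follows. For R227Q, eIF2 was -0.237 with upper-quartile factors, -0.208 with no submission term, -0.214 with 4LJFHN alone and -0.207 with paralogs summed, eIF2B -0.156 with no term and -0.138 with 4LJFHN alone, and eIF3 -0.109 and -0.0967 under those settings. Leaving out 1 library gave -0.137 to -0.018 for eIF2B, -0.0956 to -0.0471 for eIF3 and -0.162 to -0.0931 for eIF4. For H448L, eIF3 was -0.109 with no term, and leaving out 1 library gave -0.136 to -0.0759 for eIF2, -0.0996 to -0.0132 for eIF2B and -0.0424 to 0.0167 for eIF3. For the direct comparison, eIF2 turned to -0.002 with 4LJFHN alone and -0.00765 with paralogs summed, and with no term eIF3 turned to -0.00641 and eIF4 to 0.0149. Leaving out 1 library gave 0.0173 to 0.0694 for eIF2, 0.0247 to 0.0819 for eIF2B, 0.0137 to 0.05 for eIF3 and -0.046 to -0.00734 for eIF4.

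Under the alternatives 36 of 775 values of members not called in H448L changed sign, as did 22 of 471 in R227Q and 47 of 927 in the direct comparison, and none of these was called; of the called members EIF3F turned. Of the genes described in full, with no submission term, EIF3F in R227Q was -0.201, EIF2S1 in H448L 0.0283, and EIF4EBP1 0.00475 in R227Q, 0.0331 in H448L and 0.0284 in the direct comparison. EIF4EBP1 in the direct comparison was also 0.00213 with 4LJFHN alone and ran from -0.0321 (without H448L 3) to 0.00264 (without R227Q 1) with 1 library left out, and EIF4G2 there from -0.00822 (without H448L 3) to 0.0414 (without R227Q 1). The causes were not tested.

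A replicate block with submission gave 22 calls in R227Q, 6 in H448L and 1 in the direct comparison. Of all genes it called 15.8%, 6.24% and 0.183%, in that order. Its H448L medians were -0.0735 for eIF2, 0.0174 for eIF3 and -0.114 for eIF4, and EIF4EBP1 was 0.00615 in the direct comparison. Once group and submission were removed, deviations of same-numbered libraries correlated at r from -0.40 to 0.12. The fit itself constrains these deviations, so they cannot show whether same-numbered libraries were handled together. No scaling moved the median of all genes by over 0.1. Depth limits EIF2S3B, near 1 CPM, and H448L rests on 1 WT library of its submission.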
